A study of Danio rerio with 28 samples.

Results

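The genes described here are 7 apolipoprotein genes (apoeb, apoa1a, apobb.1, apob, apoc2, apoa2 and apoc1) and the nuclear receptor gene hnf4a, followed through the first hours of zebrafish development. They were taken by name, matched without regard to case to the Ensembl identifiers in the count files, and all 8 were found among 33737 gene identifiers. The gene table lists apob and hnf4a as APOB and HNF4A, and those spellings label the plots. RefSeq's table of a later assembly lists an apoba and no apob, and whether the gene called apob here is that apoba was not settled. All embryos were whole embryos of the AB strain. The series holds 28 RNA-seq libraries in 14 groups of 2. Polyadenylated RNA was sequenced from ybx1 MO embryos at 3, 4 and 6 hours post fertilisation (hpf), from pabpc1a MO embryos at 4 and 6 hpf, and from wild-type (WT) embryos at 0, 2, 3, 4 and 6 hpf. RNA depleted of ribosomal RNA was sequenced from embryos given 0.2 ng of the RNA polymerase II inhibitor alpha-amanitin at the 1-cell stage and collected at 2, 4 and 6 hpf, and from WT embryos at 4 hpf. The study's design text gives depletion alone for these samples, while their own protocol text also repeats a poly(A) selection step. MO stands for morpholino, an antisense oligonucleotide that blocks translation or splicing of its target. The libraries titled only MO were read as ybx1 MO from the study's design text, and no control morpholino was named. ybx1 encodes an RNA-binding cold-shock protein, and pabpc1a encodes a cytoplasmic poly(A)-binding protein.

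The yolk syncytial layer is a shared cytoplasm with many nuclei that forms between the yolk cell and the blastoderm. It digests yolk and exports the lipid to the embryo as lipoprotein particles, whose protein coat is built from apolipoproteins. ApoB is the large structural protein of these particles and is loaded with lipid by the microsomal triglyceride transfer protein, while the small A, C and E apolipoproteins can move between particles. In mammals HNF4A activates many apolipoprotein genes in liver and intestine. RNA of whole embryos cannot show which cells held a transcript, and fewer cells of a type and less RNA per cell cannot be told apart.

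The identifiers are ENSDARG00000040295 (apoeb), ENSDARG00000012076 (apoa1a), ENSDARG00000022767 (apobb.1), ENSDARG00000042780 (apob), ENSDARG00000092155 (apoc2), ENSDARG00000015866 (apoa2), ENSDARG00000092170 (apoc1) and ENSDARG00000021494 (hnf4a). Levels are CPM, the counts per 1000000 counts of a library whose total was scaled with the trimmed mean of M values. Scaling was done within each kit, and levels of different kits cannot be compared. Levels at different hours depend on the scaling. Mean apoeb in WT poly(A) libraries was 2291 CPM at 6 hpf and 170 CPM at 4 hpf, or 1748 and 196 CPM by plain library totals. Libraries held 48204100 to 100000375 counts with poly(A) selection and 39882963 to 66381933 with ribosomal RNA depletion. A gene is called when its adjusted p is below 0.05 in the quasi-likelihood test of edgeR, adjusted by Benjamini-Hochberg over all genes of the kit. The target transcripts were not uniformly lower in the knockdowns. For YBX1, both ybx1 MO libraries lay above both WT libraries at 3 and 6 hpf. YBX1 had 2611 and 2602 CPM in ybx1 MO embryos at 6 hpf, against 2050 and 2368 CPM in WT embryos, and 434 and 456 CPM at 4 hpf, against 761 and 450 CPM in WT embryos. At 3 hpf YBX1 had 375 and 373 CPM in ybx1 MO embryos, against 238 and 316 CPM in WT embryos. The level of pabpc1a was 484 and 510 CPM in pabpc1a MO embryos at 4 hpf, against 864 and 627 CPM in WT embryos, and 1501 and 1391 CPM at 6 hpf, against 1352 and 1970 CPM in WT embryos. A morpholino may leave its target mRNA in place, so these levels do not check the labels. The WT libraries at 4 hpf stood apart from each other: 11.76% of the genes with at least 1 CPM differed 2-fold between them, against 3.44% or less within any other group. The poly(A) comparisons with WT at 4 hpf rest on them. The files of the ybx1 MO and the depleted libraries carry the summary lines of the read counter. Those of the WT and pabpc1a MO poly(A) libraries do not. Whether the counting differed is not known, and any such difference could not be told apart from the ybx1 knockdown. All files list the same gene identifiers.

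In WT embryos the genes first passed the test at different hours: apoeb at 3 hpf, then hnf4a, apoc1, apoc2 and apob at 4 hpf, and apoa1a, apobb.1 and apoa2 at 6 hpf. Differences in timing between genes were not tested. ApoE is a ligand by which lipoprotein receptors take up particles. The level of apoeb was 0.416 and 2.86 CPM at 0 hpf, 0.422 and 1.08 CPM at 2 hpf, 6.51 and 17.2 CPM at 3 hpf, 232 and 108 CPM at 4 hpf, and 2279 and 2303 CPM at 6 hpf. From 3 hpf on, each pair lay above the pair of the stage before it. Against 2 hpf, apoeb at 3 hpf was the only member called, at a log2 fold change of 4.05 (SE 0.92, adjusted p = 0.0327), with 3.28% of all genes called higher. That call was lost without either 2 hpf library or without 3 hpf replicate 2 (adjusted p of 0.162 to 0.312). At 2 hpf against 0 hpf, where 34.3% of all genes were called, the adjusted p of each member was 0.175 or more.

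At 4 hpf against 3 hpf, 5 of the 8 genes rose, while 17.1% of all genes were called higher, and the members' median log2 fold change was 3.22, beside 0.04 over all genes. The regulator hnf4a showed the widest step. Its level was 18.3 and 3.74 CPM at 4 hpf, against 0.0239 and 0.148 CPM at 3 hpf, a log2 fold change of 6.99 (SE 0.86, adjusted p = 2.2e-04). The apoc1 product is a small exchangeable apolipoprotein that in mammals inhibits lipid transfer and lipase activity. Its RNA level was 6.04 and 1.96 CPM at 4 hpf, against 0.191 and 0.370 CPM at 3 hpf, a log2 fold change of 3.82 (adjusted p = 0.00137). For apoeb the step was 3.84 (adjusted p = 0.00661), and for apoc2, whose product activates lipoprotein lipase, it was 3.99 (adjusted p = 0.0266). The RNA of apob reached 0.958 and 1.31 CPM at 4 hpf, against 0.0478 and 0.320 CPM at 3 hpf (log2 fold change 2.63, adjusted p = 0.0292). In all 5 genes both 4 hpf libraries lay above both 3 hpf libraries. Replicate 1 of the 4 hpf group was higher than replicate 2 for apoeb, apoc1, apoc2 and hnf4a, and lower for apob. The call of apob was lost without either 4 hpf library (adjusted p 0.0811 and 0.0908) and without 3 hpf replicate 1 (0.203), that of apoeb without 3 hpf replicate 1 (0.0748), and that of apoc2 without either 3 hpf library or 4 hpf replicate 1 (0.0766 to 0.287). When edgeR was fitted to these 4 libraries alone it called 0 genes, members included, and 5035 genes had an unadjusted p under 0.05; DESeq2 on all groups called 4159 genes higher and 2614 lower.

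At 6 hpf against 4 hpf, 7 of the 8 rose, with 27.9% of all genes called higher, and the members' median log2 fold change was 6.03, beside -0.06 over all genes tested. Over all genes, 6233 were called higher and 7122 lower, or 7591 higher and 5896 lower with median-of-ratios scaling, which put the median of all genes at 0.22. The product of apoa1a is the main protein of high-density lipoprotein. Its RNA level was 21.4 and 33.6 CPM at 6 hpf, against 0.0614 and 0.0392 CPM at 4 hpf, a log2 fold change of 9.08 (SE 0.53, adjusted p = 1.1e-09) that was the 20th highest of 22377 genes. The RNA of apobb.1, a form of apolipoprotein B, had 13.3 and 17.0 CPM at 6 hpf, against 0.135 and 0.0392 CPM at 4 hpf (log2 fold change 7.46, adjusted p = 9.6e-09). The RNA of apoa2, a partner of apoA-I on high-density particles, had 2.65 and 1.77 CPM at 6 hpf, against 0.0491 and 0.0294 CPM at 4 hpf (log2 fold change 5.79, adjusted p = 4.4e-06). It had no count at 0 and 2 hpf, which allows up to 0.0301 and 0.0148 CPM. These 3 genes were below 0.14 CPM in every WT poly(A) library up to 4 hpf, and they entered the test largely through 6 hpf groups. The levels of apoc1 were 404 and 322 CPM at 6 hpf, and its step from 4 hpf was 6.51 on the log2 scale (adjusted p = 1.7e-06). Levels of apoc2 were 52.7 and 55.2 CPM at 6 hpf, and its step was 6.27 (adjusted p = 8.7e-05). For hnf4a, 156 and 89.7 CPM at 6 hpf gave a step of 3.48 (adjusted p = 3.7e-04), and for apoeb the step was 3.75 (adjusted p = 0.00239). The gene not called was apob, at 3.70 and 1.88 CPM at 6 hpf, against 0.958 and 1.31 CPM at 4 hpf (log2 fold change 1.31, SE 0.67, adjusted p = 0.109).

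**Figure D1:**
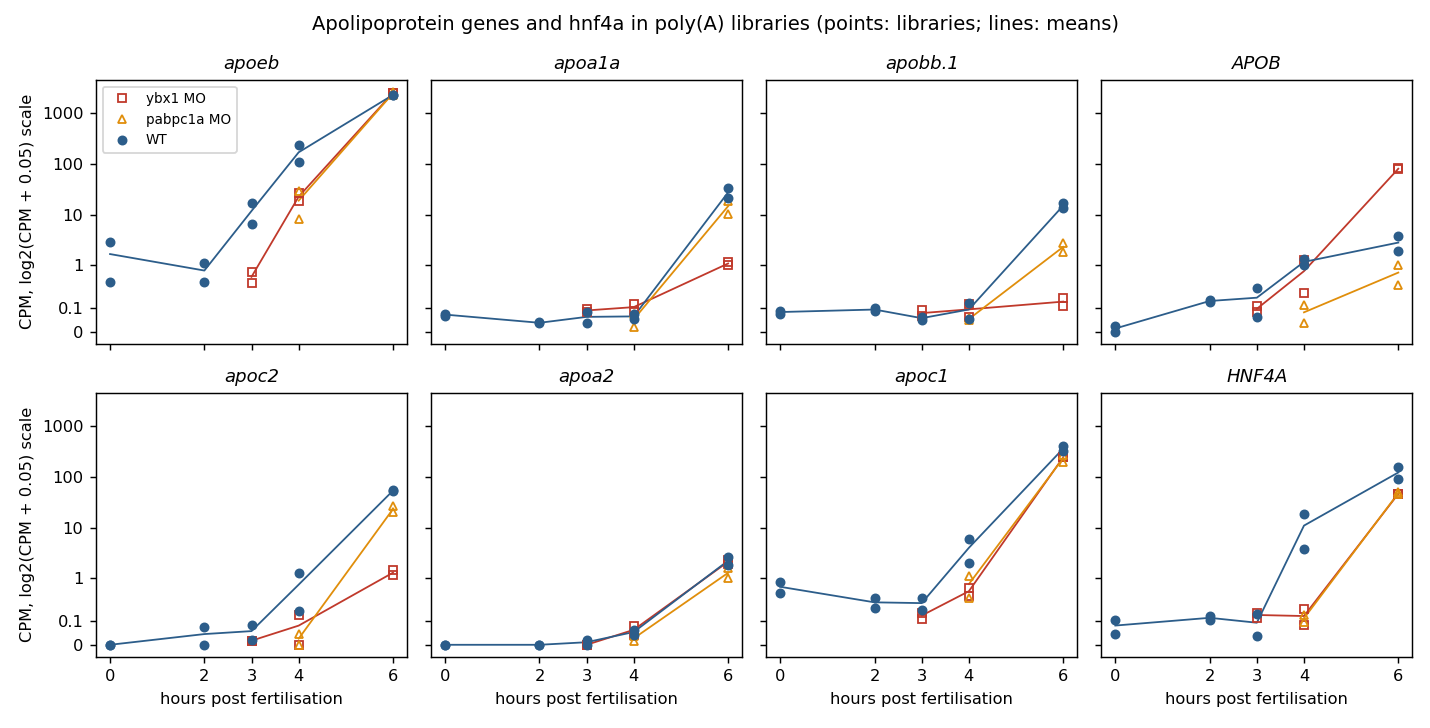
CPM of the 8 genes against hours post fertilisation in poly(A) libraries, on a log2(CPM + 0.05) scale, with 1 point per library and lines through the group means; open squares are ybx1 MO, open triangles pabpc1a MO and filled circles WT. At 6 hpf the ybx1 MO points of apoa1a, apobb.1 and apoc2 lie far below WT and those of APOB far above. The ybx1 MO points of apoeb, apoc1 and apoa2 lie nearer to WT.

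Several of these transcripts, hnf4a foremost, were lower in both knockdowns at 4 hpf. In ybx1 MO embryos 4 of the 8 genes fell relative to WT, with 19.4% of all genes called lower, and in pabpc1a MO embryos 5 fell, with 20.8% of all genes called lower. The members' median log2 fold change was -1.80 in ybx1 MO embryos and -2.79 in pabpc1a MO embryos, beside -0.06 and -0.08 over all genes tested. Both comparisons use the same WT libraries. The level of hnf4a was 0.198 and 0.0702 CPM in ybx1 MO embryos and 0.0933 and 0.139 CPM in pabpc1a MO embryos, against 18.3 and 3.74 CPM in WT embryos. Neither knockdown overlapped WT, and the log2 fold changes were -6.26 (SE 0.80, adjusted p = 2.1e-04) for ybx1 MO and -6.53 (SE 0.82, adjusted p = 1.5e-04) for pabpc1a MO. For apoeb the values were 18.4 and 27.1 CPM in ybx1 MO embryos and 8.32 and 29.6 CPM in pabpc1a MO embryos, against 232 and 108 CPM in WT embryos. The fold changes of apoeb were -2.90 (adjusted p = 0.0189) and -3.16 (adjusted p = 0.0123) on the log2 scale, with no overlap. The level of apoc1 was 0.415 and 0.618 CPM in ybx1 MO embryos and 0.362 and 1.10 CPM in pabpc1a MO embryos, against 6.04 and 1.96 CPM in WT embryos, giving -2.97 (adjusted p = 0.00309) and -2.42 (adjusted p = 0.00633).

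The lipase activator gene apoc2 had 0.138 and 0 CPM in ybx1 MO embryos and 0 and 0.0321 CPM in pabpc1a MO embryos, against 1.25 and 0.177 CPM in WT embryos at 4 hpf. It was called lower in ybx1 MO embryos (log2 fold change -3.13, adjusted p = 0.041), and its ranges did not overlap with WT in either knockdown. With 3 counts over both pabpc1a MO libraries, WT was 39.1-fold higher, with a 95% counting interval of 13.1 to 192 (adjusted p = 0.0118). The knockdowns parted at apob, which had 0.237 and 1.22 CPM in ybx1 MO embryos and 0.0233 and 0.118 CPM in pabpc1a MO embryos, against 0.958 and 1.31 CPM in WT embryos. It fell in pabpc1a MO embryos (log2 fold change -3.95, adjusted p = 0.00574). In ybx1 MO embryos its range overlapped WT (log2 fold change -0.69, SE 0.70, adjusted p = 0.482). Set directly against pabpc1a MO, ybx1 MO embryos had more apob (log2 fold change 3.26, adjusted p = 0.0339), the only member called between the knockdowns at 4 hpf, with 7.95% of all genes called higher. That call was lost without ybx1 MO replicate 2 (adjusted p = 0.334) or without either pabpc1a MO library (0.0646 and 0.212). The other 3 genes, apoa1a, apobb.1 and apoa2, were below 0.14 CPM in all 6 libraries and were not called.

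Leaving out WT replicate 1 ended the 4 hpf calls of apoeb and apoc2 in ybx1 MO embryos (log2 fold changes -2.25 and -1.14, adjusted p 0.106 and 0.477). It also ended those of apoeb, apoc2 and apoc1 in pabpc1a MO embryos (adjusted p 0.0709, 0.0963 and 0.0689; log2 fold change of apoc1 -1.37). In ybx1 MO embryos the call of apoeb was lost without either ybx1 MO library (adjusted p 0.0766 and 0.132), and that of apoc2 without replicate 2 (0.164). Leaving out pabpc1a MO replicate 1 ended the calls of apoeb, apob, apoc2 and apoc1 there (adjusted p of 0.0541 to 0.0916). The calls of hnf4a in both knockdowns and of apoc1 in ybx1 MO embryos held without any single library. With the 4 libraries of each comparison fitted alone, hnf4a and apoeb were called in ybx1 MO embryos; in pabpc1a MO embryos edgeR then called 0 genes, with 5949 at an unadjusted p under 0.05, while DESeq2 on all groups called 3435 higher and 4904 lower. Transcripts listed as markers of other cell types moved with these genes. Of 16 measured enveloping layer markers, 11 fell in ybx1 MO and 12 in pabpc1a MO embryos, beside 19.4% and 20.8% of all genes. Their summed level was 310 to 416 CPM in ybx1 MO and 131 to 254 CPM in pabpc1a MO embryos, against 645 to 2232 CPM in WT embryos, with 1 marker at 0 in each knockdown. In WT embryos this list already summed to 838.6 to 1264 CPM at 0 hpf. Of 9 deep cell markers, 6 fell and 1 rose in ybx1 MO embryos, and 7 fell in pabpc1a MO embryos. Their summed level was 114 to 156 CPM in ybx1 MO and 25.5 to 98.8 CPM in pabpc1a MO embryos, against 305 to 478 CPM in WT embryos. The part of these other cell types in the 4 hpf results was not tested. At 3 hpf, apoeb was at 0.694 and 0.411 CPM in ybx1 MO embryos, against 6.51 and 17.2 CPM in WT embryos (log2 fold change -4.42, SE 0.94, adjusted p = 0.0104). It was the only member called at that hour, with 10.2% of all genes called lower, and the call was lost without WT replicate 2 or either ybx1 MO library (adjusted p of 0.0679 to 0.113). The split of all genes at 3 hpf depended on scaling, with 1020 called higher and 2291 lower, or 1734 and 1926 with the most abundant gene left out.

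At 6 hpf the 8 genes went different ways in ybx1 MO embryos. Of the 8 genes, 3 fell and 1 rose relative to WT, with 15.6% of all genes called lower and 11.9% called higher; the median log2 fold change was -0.98, beside -0.06 over all genes. The level of apobb.1 was 0.110 and 0.182 CPM in ybx1 MO embryos, against 13.3 and 17.0 CPM in WT embryos. Both ybx1 MO libraries stayed near the 4 hpf level, and the log2 fold change was -6.70 (SE 0.53, adjusted p = 5.5e-07), the 43rd lowest of 22377. The level of apoa1a was 0.990 and 1.11 CPM in ybx1 MO embryos, against 21.4 and 33.6 CPM in WT embryos (log2 fold change -4.71, SE 0.40, adjusted p = 1.3e-06). The level of apoc2 was 1.41 and 1.11 CPM in ybx1 MO embryos, against 52.7 and 55.2 CPM in WT embryos (log2 fold change -5.41, SE 0.86, adjusted p = 9.0e-04). In each of these 3 genes the ybx1 MO libraries lay well below both WT libraries. The gene listed as apob went the opposite way, with levels of 83.3 and 78.1 CPM in ybx1 MO embryos, against 3.70 and 1.88 CPM in WT embryos. Both ybx1 MO libraries were above every other poly(A) library, at a log2 fold change of 4.83 (SE 0.73, adjusted p = 4.3e-04), the 75th highest of 22377. These 4 calls held under each alternative fit run and without any single library. How reads shared between apob, apobb.1 and apobb.2 were assigned was not tested; apobb.2 had 0.202 and 0.205 CPM in ybx1 MO embryos, against 0.136 and 0.435 CPM in WT embryos.

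The remaining 4 genes were not called in ybx1 MO embryos at 6 hpf. Their levels spanned a wide range. The level of apoeb was 2531 and 2497 CPM in ybx1 MO embryos, against 2279 and 2303 CPM in WT embryos, both ybx1 MO libraries being slightly above WT (log2 fold change 0.13, SE 0.74, adjusted p = 0.921). The level of apoa2 was 2.29 and 1.91 CPM in ybx1 MO embryos, against 2.65 and 1.77 CPM in WT embryos, with overlap (log2 fold change -0.08, SE 0.49, adjusted p = 0.933). For apoc1, 247 and 243 CPM in ybx1 MO embryos stood against 404 and 322 CPM in WT embryos (log2 fold change -0.57, SE 0.46, adjusted p = 0.401). The regulator hnf4a had 46.3 and 47.0 CPM in ybx1 MO embryos, against 156 and 89.7 CPM in WT embryos, below both WT libraries (log2 fold change -1.40, SE 0.56, adjusted p = 0.0877). With the 4 libraries of this comparison alone, hnf4a and apoc1 were also called lower (adjusted p 0.00905 and 0.0187).

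In pabpc1a MO embryos at 6 hpf, 1 of the 8 genes was called, with 4.61% of all genes called lower. The level of apobb.1 was 2.79 and 1.79 CPM in pabpc1a MO embryos, against 13.3 and 17.0 CPM in WT embryos, with no overlap (log2 fold change -2.73, SE 0.42, adjusted p = 7.3e-04). The level of apob was 0.996 and 0.365 CPM in pabpc1a MO embryos, against 3.70 and 1.88 CPM in WT embryos (log2 fold change -2.14, SE 0.75, adjusted p = 0.0978). That of hnf4a was 49.7 and 47.0 CPM in pabpc1a MO embryos, against 156 and 89.7 CPM in WT embryos (log2 fold change -1.35, SE 0.56, adjusted p = 0.171). Both genes were below both WT libraries without passing the test, as were apoc2, apoa1a, apoc1 and apoa2. For apoc1, 271 and 200 CPM in pabpc1a MO embryos stood against 404 and 322 CPM in WT embryos. For apoa2, 0.968 and 1.54 CPM in pabpc1a MO embryos stood against 2.65 and 1.77 CPM in WT embryos. Only apoeb overlapped WT, at 2644 and 2291 CPM in pabpc1a MO embryos, against 2279 and 2303 CPM in WT embryos. The level of apoc2 was 26.6 and 20.2 CPM in pabpc1a MO embryos, against 52.7 and 55.2 CPM in WT embryos, and that of apoa1a was 19.0 and 10.5 CPM, against 21.4 and 33.6 CPM in WT embryos (adjusted p 0.335 and 0.112). The members' median log2 fold change was -1.05, beside -0.00 over all genes. A fit to the 4 libraries alone called 4 members lower, adding apob, apoc2 and hnf4a (adjusted p 0.0462, 0.0049 and 0.00539).

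Other lists were read at 6 hpf beside these members. Of 12 measured maternal egg markers, 5 rose in ybx1 MO embryos, beside 11.9% of all genes, and 4 rose in pabpc1a MO embryos, beside 4.55% of all genes. They summed to 7209 to 7219 CPM in ybx1 MO embryos and 6502 to 6738 CPM in pabpc1a MO embryos, against 5354 to 5969 CPM in WT embryos, and no library of either knockdown overlapped WT. In ybx1 MO embryos most of that sum was YBX1, pabpc1a and pou5f3. Their means were 2606, 1851 and 1658 CPM, against 2209, 1661 and 1082 CPM in WT embryos. In WT embryos the list summed to only 4611 to 4767 CPM at 3 hpf, and YBX1 rose between 3 and 6 hpf by the levels given above. The sum at 6 hpf therefore cannot be read as egg RNA alone. Uncalled in ybx1 MO embryos were YBX1, pabpc1a, sox19b, MOS, ZAR1, buc and BTG4, with log2 fold changes of -0.42 to 0.24. The germ-line RNA-binding protein gene DAZL rose in both, with log2 fold changes of 1.21 (adjusted p = 2.4e-05) in ybx1 MO embryos and 1.39 in pabpc1a MO embryos. The pluripotency factor gene nanog rose in both as well (1.09 and 0.74). Of 9 deep cell markers 1 fell in ybx1 MO embryos, no larger a share than the 15.6% of all genes. It was the caudal-type homeobox gene cdx4 (log2 fold change -1.19, adjusted p = 0.00259). The deep cell list summed to 1562 to 1565 CPM in ybx1 MO embryos, against 1410 to 1451 CPM in WT embryos. The gene cdx4 fell in pabpc1a MO embryos as well (log2 fold change -0.92, adjusted p = 0.0315), while the list summed to 1555 to 1568 CPM there. The part of these lists in the members' 6 hpf results was not tested.

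**Figure D2:**
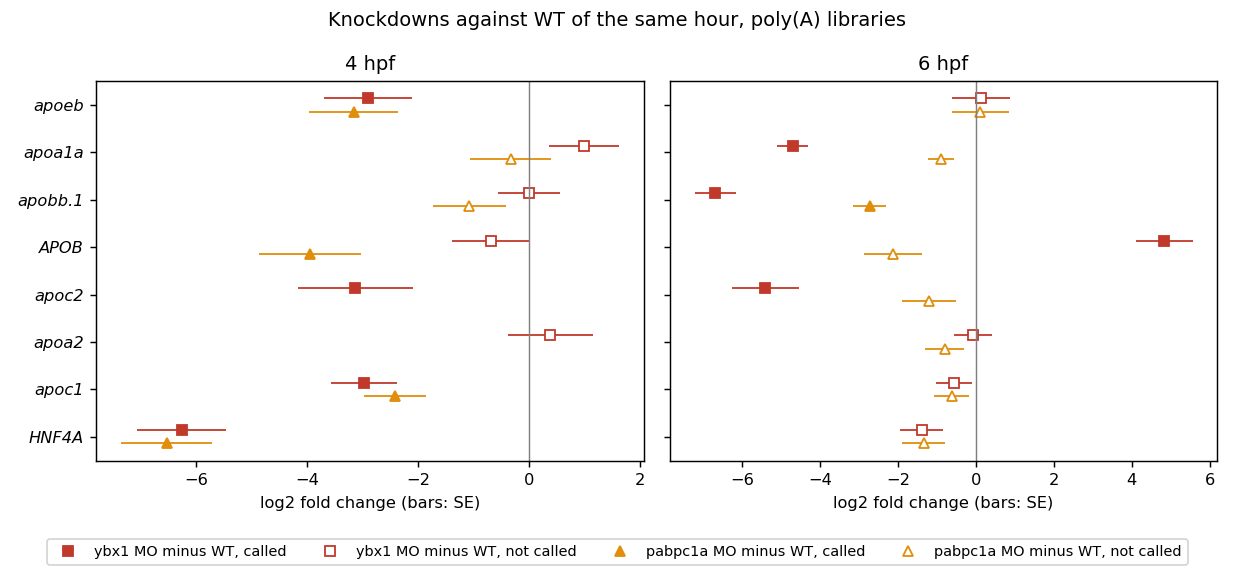
Log2 fold changes of the 8 genes in ybx1 MO (squares) and pabpc1a MO (triangles) embryos against WT embryos at 4 hpf (left) and 6 hpf (right), with bars of 1 SE and filled symbols for adjusted p below 0.05. Values are left out at 4 hpf for apoc2 and apoa2 in pabpc1a MO embryos, which had 3 counts or fewer. At 6 hpf the ybx1 MO squares lie at -6.70 for apobb.1, -5.41 for apoc2 and -4.71 for apoa1a, and at 4.83 for APOB.

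Set directly against pabpc1a MO embryos at 6 hpf, ybx1 MO embryos differed at the same 4 genes. The level of apob was higher in ybx1 MO embryos by 6.97 on the log2 scale (SE 0.83, adjusted p = 6.4e-05), the 16th highest difference of 22377, with 12.3% of all genes called higher. Levels of apoa1a, apobb.1 and apoc2 were lower in ybx1 MO embryos, with log2 differences of -3.81 (adjusted p = 3.2e-06), -3.97 (adjusted p = 2.8e-05) and -4.20 (adjusted p = 0.00293), with 15.5% of all genes called lower. The differences of apoeb (0.03, SE 0.74), apoc1 (0.06, SE 0.46) and hnf4a (-0.05, SE 0.56) were close to 0. Ranges of ybx1 MO and pabpc1a MO libraries overlapped in these 3 genes. The difference of apoa2 was 0.74 (SE 0.50, adjusted p = 0.303), with both ybx1 MO libraries above both pabpc1a MO libraries.

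Between 4 and 6 hpf in ybx1 MO embryos 7 of the 8 genes rose, with 35.2% of all genes called higher (7870 higher and 8141 lower, or 9107 and 6816 with median-of-ratios scaling). The exception was apobb.1, with 0.110 and 0.182 CPM at 6 hpf, against 0.0495 and 0.126 CPM at 4 hpf (log2 fold change 0.76, SE 0.60, adjusted p = 0.265). The step of apob was 6.83 (SE 0.81, adjusted p = 6.4e-06), and that of apoa1a was 3.37 (SE 0.47, adjusted p = 6.5e-06). In pabpc1a MO embryos all 8 genes rose between 4 and 6 hpf, with 37.1% of all genes called higher (8310 higher and 7909 lower, or 9431 and 6717 with median-of-ratios scaling). The smallest of those steps was that of apob (log2 fold change 3.12, SE 1.00, adjusted p = 0.0134), whose call was lost without replicate 1 of 4 hpf or of 6 hpf (adjusted p 0.0874 and 0.111). Between 3 and 4 hpf, ybx1 MO embryos raised 2 of the 8, with 4.8% of all genes called higher (1075 higher and 662 lower, or 941 and 959 with the most abundant gene left out). These were apoeb (log2 fold change 5.36, adjusted p = 0.00611) and apoa2, which had no count at 3 hpf and was at least 3.42-fold higher at 4 hpf with a floor of 3 counts over the group (adjusted p = 0.0325). The call of apoeb was lost without either 3 hpf library (adjusted p 0.0686 and 0.0982), and that of apoa2 without any of the 4 libraries (0.0534 to 0.194).

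Tests of whether the knockdown difference itself changed with the hour called 5 of the 8 genes for ybx1 MO between 4 and 6 hpf, with 26.4% of all genes called. The ybx1 MO minus WT difference moved down for apobb.1 (by a log2 change of -6.70, adjusted p = 4.8e-05) and apoa1a (-5.70, adjusted p = 7.9e-05). It moved up for apob (5.52, adjusted p = 0.0016), hnf4a (4.86, adjusted p = 0.00369) and apoc1 (2.40, adjusted p = 0.0352). At 4 hpf apobb.1 had 14 counts over the ybx1 MO group and 15 over the WT group, and apoa1a had 17 and 9. The changes for apobb.1 and apoa1a therefore rest almost wholly on the 6 hpf groups, through which both genes largely entered the test. The change for apoc1 was lost when any of 7 of the 8 libraries was left out (adjusted p of 0.057 to 0.153). Between 3 and 4 hpf the ybx1 MO minus WT difference moved down for hnf4a (-6.99, adjusted p = 0.0312), with 2.05% of all genes called, a call that was lost when any of 6 of the 8 libraries was left out (adjusted p of 0.0535 to 0.197). The pabpc1a MO minus WT difference changed between 4 and 6 hpf for hnf4a (5.19, adjusted p = 0.00402), with 22.8% of all genes called.

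The genes apoeb, apoc1, apoa2 and apoc2 are neighbours in the zebrafish genome. In the RefSeq gene order of assembly GRCz12tu, used here for order alone, the run reads apoa4b.1, apoa4b.3, apoa4b.2, apoeb, apoc1, apoc4, apoa2, apoc2 and bcam, with 4 further loci between them. Within this cluster at 6 hpf, ybx1 MO embryos had apoeb, apoc1 and apoa2 uncalled and apoc2 called lower. Their neighbours apoa4b.1, apoa4b.3 and apoc4 were not among the genes tested in poly(A) libraries, so the cluster is described in part. The A4 apolipoprotein gene apoa4b.2 was at 0.917 and 1.00 CPM in ybx1 MO embryos, against 3.13 and 3.33 CPM in WT embryos, below both WT libraries without passing the test (log2 fold change -1.75, SE 0.65, adjusted p = 0.0539). The adhesion molecule gene bcam was at 30.0 and 26.9 CPM in ybx1 MO embryos, against 16.6 and 9.89 CPM in WT embryos (log2 fold change 1.10, adjusted p = 0.172). In pabpc1a MO embryos the corresponding levels were 3.02 and 1.73 CPM for apoa4b.2 and 12.7 and 11.2 CPM for bcam. These 2 neighbours were named after their values were seen.

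**Figure D3:**
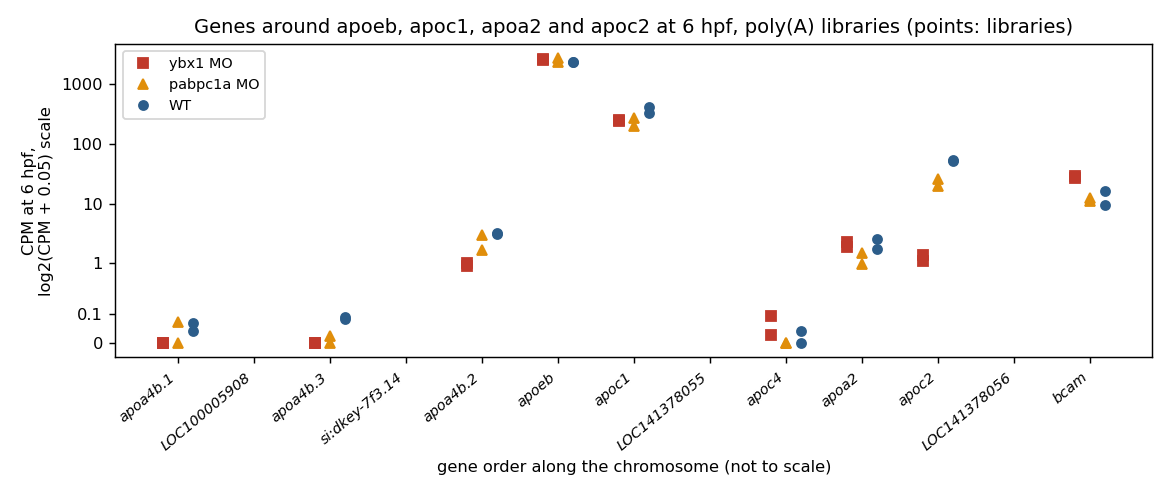
CPM at 6 hpf of the genes around apoeb in RefSeq order (not to scale), on a log2(CPM + 0.05) scale, with 1 point per poly(A) library; squares are ybx1 MO, triangles pabpc1a MO and circles WT, and loci with no points had no value in the tables drawn. The ybx1 MO points of apoc2 lie at 1.11 and 1.41 CPM, below WT, while those of apoeb, apoc1 and apoa2 lie nearer to WT.

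Genes that act with apolipoproteins were read from lists. Of 13 measured regulators of the yolk syncytial layer and endoderm, 10 rose in WT embryos at 4 hpf against 3 hpf, beside 17.1% of all genes. At 4 hpf 10 fell in ybx1 MO embryos, beside 19.4% of all genes, and 10 fell in pabpc1a MO embryos, beside 20.8%. At 6 hpf 1 of the 13 fell in ybx1 MO embryos, no larger a share than the 15.6% of all genes: FOXA2, a forkhead factor of endoderm and axial mesoderm, was at 7.67 and 6.69 CPM in ybx1 MO embryos, against 25.9 and 27.9 CPM in WT embryos (log2 fold change -1.91, adjusted p = 9.9e-04). The medians of this list were -3.62 at 4 hpf and 0.62 at 6 hpf in ybx1 MO embryos. The enveloping layer markers, which fell at 4 hpf, summed to 10627 to 10635 CPM in ybx1 MO embryos at 6 hpf, against 8935 to 10932 CPM in WT embryos, and their median log2 fold change was -0.09.

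Of 12 measured genes of lipoprotein assembly, 7 fell in ybx1 MO embryos at 6 hpf, beside 15.6% of all genes, at a median log2 fold change of -0.81 (4 to 6 fell without a single library, the fewest without ybx1 MO replicate 2). ACAT2, a thiolase of sterol synthesis, was at 9.39 and 8.71 CPM in ybx1 MO embryos, against 14.8 and 16.1 CPM in WT embryos (log2 fold change -0.77, adjusted p = 3.1e-04). DGAT2, which makes triglyceride, was at 1.08 and 1.05 CPM in ybx1 MO embryos, against 3.82 and 3.68 CPM in WT embryos (log2 fold change -1.82, adjusted p = 0.00151). SOAT1, which makes cholesteryl ester, was at 0.788 and 1.00 CPM in ybx1 MO embryos, against 2.54 and 2.41 CPM in WT embryos (log2 fold change -1.47, adjusted p = 0.00273). None of the 3 overlapped WT. The transfer protein gene MTTP was at 152 and 146 CPM in ybx1 MO embryos and 53.8 and 56.0 CPM in pabpc1a MO embryos, against 185 and 88.0 CPM in WT embryos at 6 hpf, and it was called in neither (adjusted p 0.933 and 0.389). In pabpc1a MO embryos at 6 hpf, 2 of the 12 fell, DGAT2 and SOAT1, beside 4.61% of all genes.

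Among 6 measured members of the list of other apolipoproteins, 2 fell in ybx1 MO embryos at 6 hpf, beside 15.6% of all genes, and both, apool and APOO, belong to the mitochondrial MICOS complex. Whichever of the 4 libraries was left out, 1 of the 6 fell. The level of apool was 10.4 and 11.1 CPM in ybx1 MO embryos, against 20.7 and 18.6 CPM in WT embryos (log2 fold change -0.87, adjusted p = 2.9e-04). Of 10 lipoprotein receptor genes 2 fell in ybx1 MO embryos at 6 hpf, and of 7 lipase and lipid transfer genes 1 fell, the lipase gene lipia, shares near the 15.6% of all genes. The very-low-density lipoprotein receptor gene VLDLR was at 13.8 and 15.1 CPM in ybx1 MO embryos, against 22.0 and 27.0 CPM in WT embryos (log2 fold change -0.76, adjusted p = 0.0017). In WT embryos VLDLR had 194 and 188 CPM at 3 hpf, 121 and 152 CPM at 4 hpf and 22.0 and 27.0 CPM at 6 hpf, so that it fell while most of the 8 genes rose (6 hpf against 4 hpf, log2 fold change -2.48, adjusted p = 2.7e-09).

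Most of the 8 genes were lower in amanitin embryos than in WT embryos at 4 hpf. In ribosomal RNA-depleted libraries 6 of the 8 fell in amanitin embryos relative to WT, with 36.2% of all genes called lower, at a median log2 fold change of -4.70, beside -0.02 over all genes. The level of apoeb was 1.44 and 1.65 CPM in amanitin embryos, against 312 and 329 CPM in WT embryos, and that of hnf4a was 0.130 and 0.218 CPM, against 30.3 and 28.1 CPM in WT embryos. The poly(A) libraries of WT embryos at 4 hpf, a different kit, had 232 and 108 CPM of apoeb and 18.3 and 3.74 CPM of hnf4a, and kit and embryo batch cannot be told apart there. Neither gene's amanitin and WT groups came near each other (hnf4a log2 fold change -7.36, SE 0.19, adjusted p = 1.5e-18). The level of apoc1 was 0.0289 and 0.177 CPM in amanitin embryos, against 5.88 and 6.38 CPM in WT embryos (log2 fold change -5.84, adjusted p = 1.0e-06). That of apob was 0.173 and 0.191 CPM in amanitin embryos, against 3.37 and 2.49 CPM in WT embryos (log2 fold change -4.00, adjusted p = 4.0e-09). With 2 counts of apoc2 over both amanitin libraries, WT was 49.0-fold higher, with a 95% counting interval of 13.0 to 413 (adjusted p = 1.2e-05). The level of apoa1a was 0.0289 and 0.0682 CPM in amanitin embryos, against 0.526 and 0.391 CPM in WT embryos (log2 fold change -3.18, adjusted p = 5.9e-04). Uncalled were apobb.1 and apoa2, both at 0.163 CPM or less in these 4 libraries (adjusted p 0.192 and 0.0722). Markers of other cell types were lower too. Of 16 enveloping layer markers 15 fell, with a summed level of 237 to 241 CPM in amanitin embryos, against 1570 to 1627 CPM in WT embryos. Of 9 deep cell markers 8 fell, with a summed level of 6.83 to 7.18 CPM in amanitin embryos, against 397 to 410 CPM in WT embryos. The part of these cell types in the members' values was not tested. Between 2 and 4 hpf in amanitin embryos, apoeb was the only member called, with 1.44 and 1.65 CPM at 4 hpf, against 0.515 and 0.420 CPM at 2 hpf (log2 fold change 1.72, SE 0.15, adjusted p = 1.1e-08), with 15.6% of all genes called higher.

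**Figure D4:**
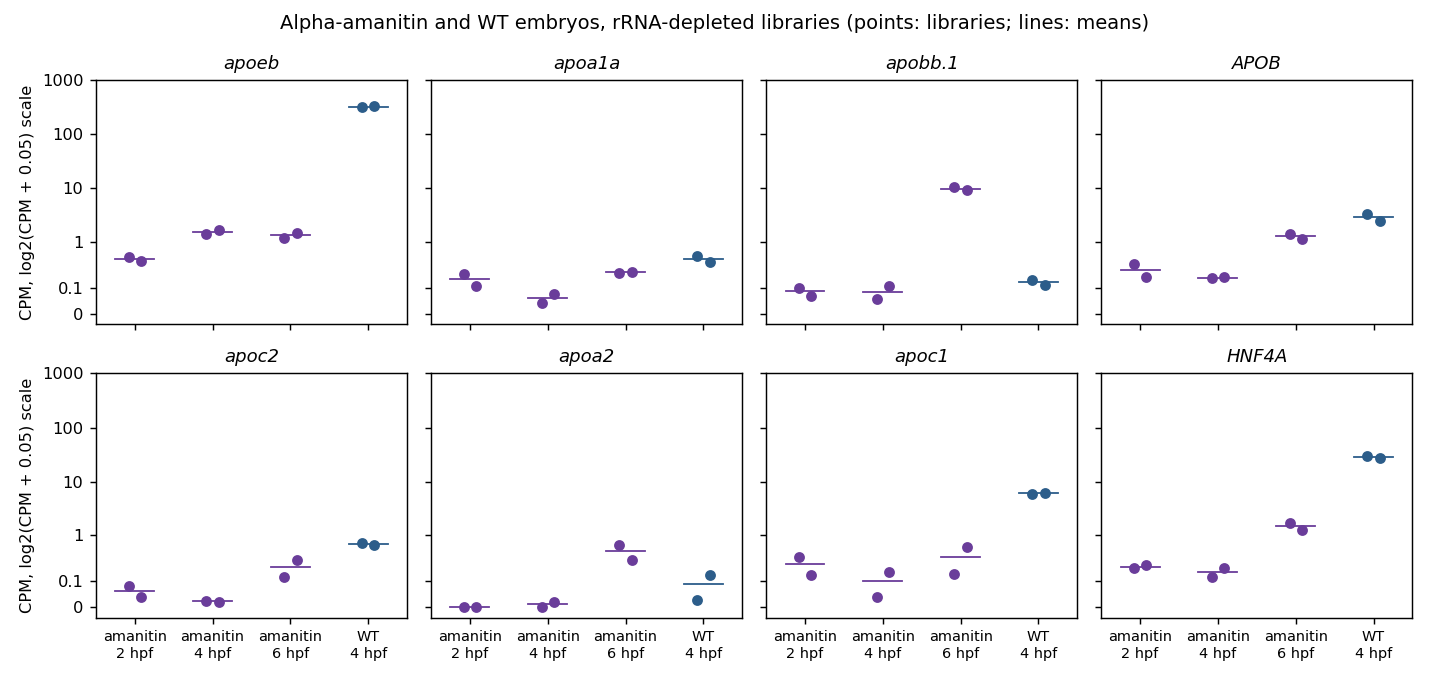
CPM of the 8 genes in ribosomal RNA-depleted libraries of amanitin embryos at 2, 4 and 6 hpf and WT embryos at 4 hpf, on a log2(CPM + 0.05) scale; points are libraries and lines are means of 2. The amanitin points of apobb.1 at 6 hpf, 9.32 and 10.6 CPM, lie above all the other points of that gene in the plot.

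Later in amanitin embryos, 6 of the 8 genes took a larger share of the library at 6 hpf than at 4 hpf, with 33.1% of all genes called higher. The level of apobb.1 was 10.6 and 9.32 CPM at 6 hpf, against 0.0433 and 0.109 CPM at 4 hpf, a log2 fold change of 6.98 (SE 0.32, adjusted p = 1.1e-14) that was the 107th highest of 21525. The pairs were far apart. Nearly all depleted-library counts of apobb.1 came from this 6 hpf group, through which the gene entered the test. In the separately normalised poly(A) libraries at 6 hpf, the same gene had 13.3 and 17.0 CPM in WT embryos. It had 2.79 CPM or less in both knockdowns. Levels of different kits cannot be compared, and no depleted WT libraries were made at 6 hpf. Whether amanitin embryos differed from WT or knockdown embryos at that hour therefore cannot be read from these values. The level of hnf4a was 1.72 and 1.30 CPM at 6 hpf, against 0.130 and 0.218 CPM at 4 hpf (log2 fold change 3.09, SE 0.28, adjusted p = 1.9e-09), and that of apob was 1.44 and 1.12 CPM, against 0.173 and 0.191 CPM at 4 hpf (log2 fold change 2.80, adjusted p = 1.8e-06). The level of apoa1a was 0.235 and 0.249 CPM at 6 hpf, against 0.0289 and 0.0682 CPM at 4 hpf (adjusted p = 0.0158, lost without 4 hpf replicate 1 or 6 hpf replicate 2). With 1 count of apoa2 over both 4 hpf libraries, 6 hpf was 69.1-fold higher, with an interval of 11.7 to 2802, and with 2 counts of apoc2 it was 16.4-fold higher, with an interval of 3.92 to 145.5 (adjusted p 1.7e-04 and 0.00168). In contrast, apoeb had 1.20 and 1.47 CPM at 6 hpf, against 1.44 and 1.65 CPM at 4 hpf (log2 fold change -0.21, SE 0.14, adjusted p = 0.27), and apoc1 missed the threshold (adjusted p = 0.0527). Other values moved between these hours. Of 16 enveloping layer markers 1 rose and 5 fell, beside 33.1% of all genes called higher and 34.6% called lower. They summed to 593.8 to 624.4 CPM at 6 hpf, with 3 at 0, against 237 to 241 CPM at 4 hpf. Nearly all of that sum was the adhesion molecule gene epcam (log2 fold change 1.38, adjusted p = 3.4e-16). Of 9 deep cell markers 6 fell, to 1.20 to 1.33 CPM in sum at 6 hpf, against 6.83 to 7.18 CPM at 4 hpf. Reads in no gene were 16.02% to 16.06% of the total at 6 hpf, against 9.02% to 9.18% at 4 hpf. The part of these in the 6 hpf values was not tested.

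Secreted and transport proteins typical of yolk layer and liver moved with these genes in amanitin embryos at 6 hpf. Of 19 measured genes of that list 13 were called higher than at 4 hpf and 1 lower, beside 33.1% and 34.6% of all genes, at a median log2 fold change of 3.97, beside -0.01 over all genes. Of the 22 identifiers matched to the list, 7 were at 0 in amanitin embryos at 4 hpf and 2 at 6 hpf. Genes of the list may thus have entered the test through the 6 hpf group, so these values are not independent of the filter. The list summed to 2391 to 2511 CPM at 6 hpf, against 1187 to 1210 CPM at 4 hpf. Nearly all of that sum was the cathepsin L gene ctsla, at 2486 and 2362 CPM at 6 hpf, against 1199 and 1175 CPM at 4 hpf (log2 fold change 1.03). The transferrin gene tfa had 7.55 and 9.70 CPM at 6 hpf, against 0.173 and 0.068 CPM at 4 hpf (log2 fold change 6.15, adjusted p = 6.0e-14). The liver fatty acid-binding protein gene fabp10a had 1.44 and 1.07 CPM at 6 hpf and had no count at 4 hpf, so that it was at least 59.4-fold higher with a floor of 3 counts over the group (adjusted p = 2.2e-07). Of 14 measured regulators 4 fell and 0 rose (median log2 fold change -1.25), beside 34.6% of all genes called lower and 33.1% called higher by edgeR. They summed to 1.57 to 1.65 CPM at 6 hpf, with 3 genes at 0, against 4.30 to 4.49 CPM at 4 hpf. The yolk syncytial layer regulator mxtx2 had 0.105 and 0.0249 CPM at 6 hpf, against 0.939 and 1.08 CPM at 4 hpf (log2 fold change -3.94, adjusted p = 3.3e-09). MTTP was at 0.0523 and 0.125 CPM in amanitin embryos at 6 hpf. In poly(A) libraries of ybx1 MO embryos at 6 hpf, ctsla was the only gene of the secreted list called against WT. It was higher (log2 fold change 0.55, adjusted p = 0.0104 in edgeR's test), beside 11.9% of all genes called higher and 15.6% called lower. The part of the source of these secreted-protein transcripts in the apobb.1 result of amanitin embryos was not tested. CPM is a share of each library, so a higher share need not be more molecules, and the spike-in RNA that the study added was not used here.

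**Figure D5:**
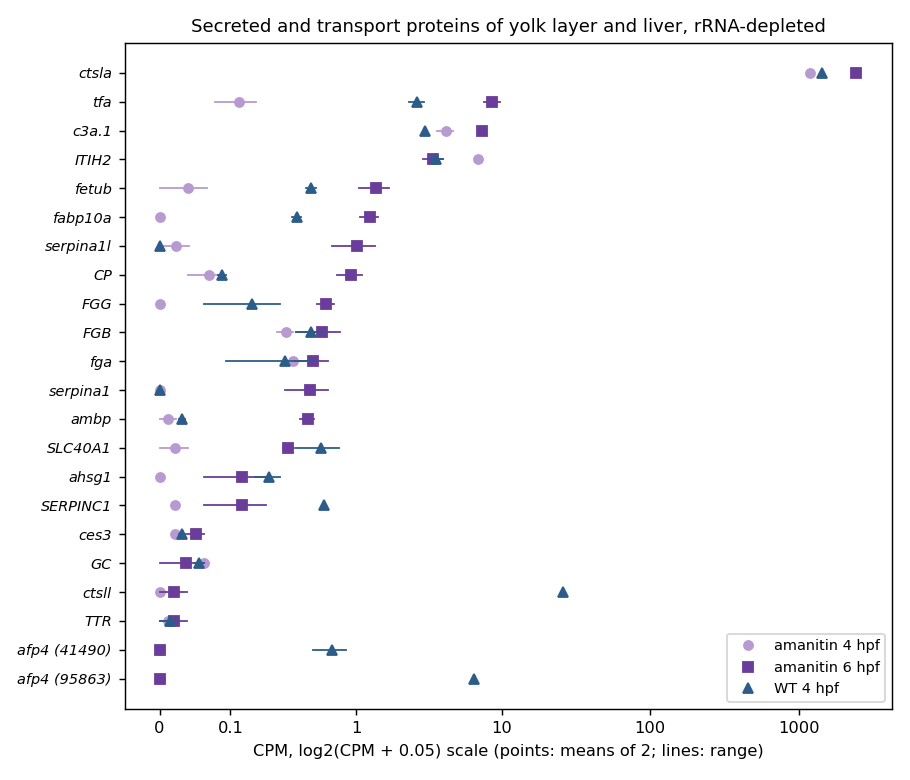
CPM of the listed secreted and transport protein genes in ribosomal RNA-depleted libraries, on a log2(CPM + 0.05) scale; circles are amanitin at 4 hpf, squares amanitin at 6 hpf and triangles WT at 4 hpf, with points at means of 2 and lines over the range. The squares of tfa and fabp10a lie to the right of both other symbols.

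Across the 20 poly(A) libraries, the genes whose log2 CPM followed hnf4a most closely among 8919 candidates were B3GNT5 (Pearson's r = 0.992), si:dkey-221l21.2 (0.990), kcnk1a (0.9895), krt92 (0.989) and SLC43A3 (0.988). Of these, krt92 is a keratin gene and is also on the list of enveloping layer markers. The mean profile of the 7 apolipoprotein genes was followed most closely by eve1 (r = 0.990), tbx16l (0.989), igf2bp1 (0.989), FOXC1 (0.988) and ZNF703 (0.986). Of these, eve1 is also on the list of deep cell markers. The libraries share stages and treatments, so these points are not independent, and the values are descriptions.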

How the data were processed

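RNA was measured in whole zebrafish embryos. The authors deposited 1 table of read counts per library; per the submitters' processing notes TopHat2 2.1.1 and HTSeq 0.6.0 were used. The genome build, annotation and strand setting were not given in the sources used here. Per the labels' protocols, poly(A) libraries were stranded and read at 125 bp. In the 14 files with summary lines, reads in no gene were 7.22% to 18.5% of the total. These lines were left out. The share was 17.2% to 17.9% in depleted WT libraries at 4 hpf, against 9.02% to 9.18% in amanitin libraries at 4 hpf. In ybx1 MO libraries it was 18.3% to 18.5% at 6 hpf, against 7.58% to 9.77% at 4 hpf. A single gene took 22.2% to 46.1% of each poly(A) library.

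The kits were fitted apart with edgeR 4.0.16 in R 4.3.3: TMM scaling, filterByExpr by group, robust quasi-likelihood fit over all groups of a kit, Benjamini-Hochberg adjustment, threshold 0.05. This left 22377 genes and 10 residual degrees of freedom for poly(A), and 21525 and 4 for depleted RNA. The SE is the fold change divided by the square root of F. All 8 members passed the filter in both kits. In poly(A) libraries the counts of apoa1a, apobb.1 and apoa2 lay mostly in 6 hpf groups. In depleted libraries those of apobb.1 and apoa2 lay mostly in the amanitin group at 6 hpf. These genes were therefore tested largely through the hour at which they were high, so their rises to 6 hpf are not independent of the filter. A group with 3 counts or fewer gets a ratio with an exact 95% interval (counting error only) or a bound. The design had 20 comparisons: 17 pairwise and 3 changes of a difference. Alternatives were median-of-ratios scaling, DESeq2 1.42.0, a filter of 1 count, the replicate number as a block, the compared groups alone, each library left out, and, added after seeing the data, the most abundant gene left out. On simulated data for ybx1 MO against WT at 6 hpf (20970 genes), 80.3% of 4-fold, 37.3% of 2-fold and 7.5% of 1.5-fold changes were recovered, with 9 false calls among 20770 unchanged genes. Each simulated gene had the same spread in all groups, and changes were placed only in genes of at least 1 CPM in WT. Lower genes and groups of unlike spread were therefore not tried.

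The members and lists were chosen with earlier results of these data known. Named beside them are up to 3 called members of a list per comparison by adjusted p, the 5 genes most like hnf4a or the apolipoprotein mean (at least 10 CPM in a group), the morpholino targets, and bcam, apoa4b.2, MTTP and apobb.2, which were named after their values were seen. Of the libraries, only the amanitin pairs are stated to be biological replicates, so p-values measure the spread between these samples, which may be technical. Sequences and promoter motifs were not analysed here.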

Additional observations from a re-analysis of the deposited data

Results flagged for a closer look

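Each result named here is a difference between knockdown and WT embryos that itself changed between 2 hours, by a test of that change in edgeR's quasi-likelihood fit. For ybx1 MO minus WT between 4 and 6 hpf, 26.4% of all genes were called. The change in log2 units was -6.70 for apobb.1, -5.70 for apoa1a, 5.52 for apob (APOB), 4.86 for hnf4a (HNF4A) and 2.40 for apoc1. At 4 hpf apobb.1 and apoa1a had 17 counts or fewer per group, so their change rests almost wholly on the 6 hpf groups. That of apoc1 was lost in most fits with a single library left out (adjusted p of 0.057 to 0.153). For ybx1 MO minus WT between 3 and 4 hpf the change was -6.99 for hnf4a (adjusted p = 0.0312), with 2.05% of all genes called. This last change was lost when any of 6 of its 8 libraries was left out (adjusted p of 0.0535 to 0.197 over those 6). For pabpc1a MO minus WT between 4 and 6 hpf the change was 5.19 for hnf4a, with 22.8% of all genes called. With only the compared groups fitted in edgeR, its adjusted p was 0.0598. The 3 changes for hnf4a rest on the WT libraries at 4 hpf, where it had 18.3 and 3.74 CPM.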

How the results depend on the processing

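Of 543 member fold changes recomputed under other settings, 517 kept their direction and side of the threshold, 16 were weaker, 10 became called and 0 reversed; of 448 with 1 library left out the counts were 391, 33, 8 and 16. These totals leave out comparisons in which a member stayed under a minimum of 1 CPM. Calls lost there, such as that of apoc2 for WT 4 against 3 hpf, are not among them. The number of members called moved as follows. With only the compared groups fitted it was 2 for WT 2 against 0 hpf (0 in the full fit), 0 for WT 3 against 2 hpf (1), 0 for WT 4 against 3 hpf (5), 2 for ybx1 MO at 4 hpf (4), 0 for pabpc1a MO at 4 hpf (5), 4 for pabpc1a MO at 6 hpf (1), 0 for ybx1 MO against pabpc1a MO at 4 hpf (1), and 0 for the change of the ybx1 MO difference at 4 against 3 hpf and of the pabpc1a MO difference at 6 against 4 hpf (1 each). These fits rest on fewer libraries; over all genes they called 0 for WT 4 against 3 hpf and for pabpc1a MO at 4 hpf, where 5035 and 5949 genes had an unadjusted p under 0.05. All-gene calls, higher and lower, also moved by over 1.5 times for WT 3 against 2 hpf (2648 and 1914, against 734 and 292), ybx1 MO at 3 hpf (3306 and 3945, against 1020 and 2291), ybx1 MO at 4 hpf (109 and 900, against 2869 and 4338), pabpc1a MO at 6 hpf (330 and 449, against 1018 and 1032), ybx1 MO 4 against 3 hpf (1208 and 1621, against 1075 and 662), and the changes of the ybx1 MO difference (59 and 18, against 172 and 286; 2403 and 1074, against 3307 and 2591) and of the pabpc1a MO difference (1072 and 268, against 3158 and 1951). With a filter of 1 count, members called were 3 for WT 4 against 3 hpf, 0 for ybx1 MO against pabpc1a MO at 4 hpf, 2 for amanitin 4 against 2 hpf and 0 for the first change of the ybx1 MO difference. With DESeq2 they were 1 for WT 2 against 0 hpf and 2 for the change of the pabpc1a MO difference; over all genes DESeq2 called 1339 and 640 for WT 3 against 2 hpf and 487 and 920 for the first change of the ybx1 MO difference, 2021 and 2669 for ybx1 MO at 3 hpf, and moved the higher calls of pabpc1a MO at 6 hpf to 1608 and the lower calls of ybx1 MO 4 against 3 hpf to 1033. Leaving out the most abundant gene gave 1734 and 1926 for ybx1 MO at 3 hpf and 941 and 959 for ybx1 MO 4 against 3 hpf, and left the members called in each poly(A) comparison within 1.5 times.

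Without single libraries the members called were 0 to 1 for WT 3 against 2 hpf, 2 to 4 for WT 4 against 3 hpf, 0 to 1 for ybx1 MO at 3 hpf, 2 to 4 for ybx1 MO at 4 hpf, 1 to 6 for pabpc1a MO at 4 hpf, 0 to 1 between knockdowns at 4 hpf, 0 to 2 for ybx1 MO 4 against 3 hpf, 0 to 1 for its change against WT and 1 to 4 for the change of the pabpc1a MO difference. Directions that reversed belonged to uncalled values. The ranges of log2 fold changes over libraries left out were -1.99 to 0.78 for apoeb (WT 2 against 0 hpf), -2.25 to 0.10 for APOB (ybx1 MO, 4 hpf), -0.34 to 0.25 for apoa2 (ybx1 MO, 6 hpf), -0.38 to 1.46 for apoeb (between knockdowns, 4 hpf), and -0.07 to 0.13 for apoeb and -0.14 to 0.29 for apoc1 (between knockdowns, 6 hpf). For changes of the difference from WT they were -1.60 to 1.10 for APOB (ybx1 MO, 4 against 3 hpf), -4.26 to 3.27 for apoc2 and -0.90 to 0.35 for apoa2 (ybx1 MO, 6 against 4 hpf), and -1.28 to 1.03 for apoa1a and -0.13 to 0.88 for apoa2 (pabpc1a MO, 6 against 4 hpf). The cause was not tested.

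The replicate number as a block gave 2 members called for the change of the pabpc1a MO difference, against 1 without it, and left the other counts of members called within 1.5 times. Deviations of same-numbered libraries correlated at -0.2028 to 0.2872, so the pairing rests on a number alone. Scaling by plain library totals left 77 of 112 mean levels within 1 SD and moved 35, by factors of 0.6965 to 1.28. Low levels rest on few counts, so absence cannot be read from them, and the planned search of promoters for motifs was not run.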
